A study of Mus musculus with 8 samples.

Results

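Of the 9413 LRH-1 peaks called after the ovulatory signal, 948 had no overlapping LRH-1 peak before it and overlapped a peak of open chromatin at both times. They are called gained sites in constantly open chromatin here, or gained sites for short. They were chosen from the deposited peak lists by overlap of at least 1 bp, so that the gain of LRH-1 and the open chromatin at both times are given by the choice and are no finding. Constantly open means that a FAIRE peak was called before and after the signal, and it does not mean an equal signal at both times. The gained sites made up 10.1% of all LRH-1 peaks after the signal and 17.3% of the 5473 gained LRH-1 peaks. Gained peaks of any kind were 58.1% of the list, and 24.6% of all peaks overlapped FAIRE peaks at both times.

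LRH-1 (NR5A2) is an orphan nuclear receptor that binds DNA as a monomer. In granulosa cells, the somatic cells around the oocyte, it is required for ovulation and for the formation of the corpus luteum. The surge of luteinising hormone switches these cells from follicle growth to ovulation and luteinisation. FAIRE (formaldehyde-assisted isolation of regulatory elements) enriches DNA with few nucleosomes, which marks active promoters and enhancers, and ChIP recovers the DNA that a protein was crosslinked to.

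The 4 lists came from C57BL/6 mice with intact LRH-1 (genotype LRH-1 +/+), aged 22 to 25 days, that received 5 IU of equine chorionic gonadotropin (eCG) for follicle growth. Human chorionic gonadotropin (hCG, 5 IU), used in place of a natural surge, was scheduled 44 h later. The 0 h samples had no hCG effect yet and are called before hCG, and the others were collected when 4 h had passed. Each time has 1 FAIRE list and 1 LRH-1 list. FAIRE was done on granulosa cells freed by puncturing the ovary. The LRH-1 ChIP is labelled as granulosa cells, but its protocol starts from ovarian tissue (n = 5 per condition as stated), so that other ovarian cells can contribute, and no readout of the lists checks which cells the LRH-1 peaks came from. Immature mice under gonadotropins are a synchronised model of the follicle and not a natural cycle.

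The lists held 5886 LRH-1 peaks before hCG, 9413 after it, and 21431 and 22791 FAIRE peaks. Each label states 2 replicates, but with 1 list per time no difference below could be tested over samples. All intervals are 95% intervals, exact binomial for shares and from order statistics for medians. They cover counting error within these lists only. Counts over chromosomes compare parts of the same lists, and chromosomes are not replicates. Values of single peaks are the authors' own, and read depths are not given in the sources used here. Positions are in mouse build mm9.

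The 12 best-scoring gained sites had their summits inside the FAIRE peaks of both times, and these FAIRE peaks ranged widely in rank within each FAIRE list. The LRH-1 score here is a peak's −log10 q-value. FAIRE peaks are ordered by their listed score, given as a percentile of its list (100 is the highest). The best-scoring gained site was chr11:114698302-114698772, with 10.1-fold enrichment and a LRH-1 score of 33.2. Its FAIRE peaks stood at percentile 54.6 before hCG and 60.6 after it. The next was chr14:69875213-69875855, at 8.06-fold and a LRH-1 score of 31.9, with FAIRE percentiles of 26.9 before and 97.3 after hCG. These 2 sites had similar LRH-1 scores in chromatin of different FAIRE rank after hCG.

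The site at chr12:88230290-88230789 was 7.72-fold enriched, with FAIRE percentiles of 14.2 before and 53.9 after hCG. At chr7:146194297-146194998, the widest of the 6 best-scoring sites with 702 bp, LRH-1 was 8.68-fold enriched and FAIRE stood at percentiles 30.5 and 81.3. At chr5:23769642-23770101 the values were 8.62-fold, 81.2 before and 66.5 after hCG. The 6 sites thus spanned FAIRE percentiles of 14.2 to 81.2 in the list before hCG, and of 53.9 to 97.3 in the later list. The site at chr1:52822047-52822437 was 9.07-fold enriched, with percentiles of 76.3 and 96.1.

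The other 6 of the 12 best-scoring sites had LRH-1 scores from 21.2 to 22.6. In order of score they were chr12:45959087-45959399, chr13:67407012-67407377, chr10:120073139-120073503, chr16:28036058-28036389, chr11:3567615-3567978 and chr7:109629340-109629719. That at chr11:3567615-3567978 lay in a FAIRE peak at percentile 1.80 before hCG, close to the lowest score in that list, and at 79.6 after it. From summit to summit, the nearest LRH-1 peak before hCG was 12217 bp from the site on chromosome 14 and 2452988 bp from that on chromosome 13, the extremes among the 12 sites.

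**Figure D1:**
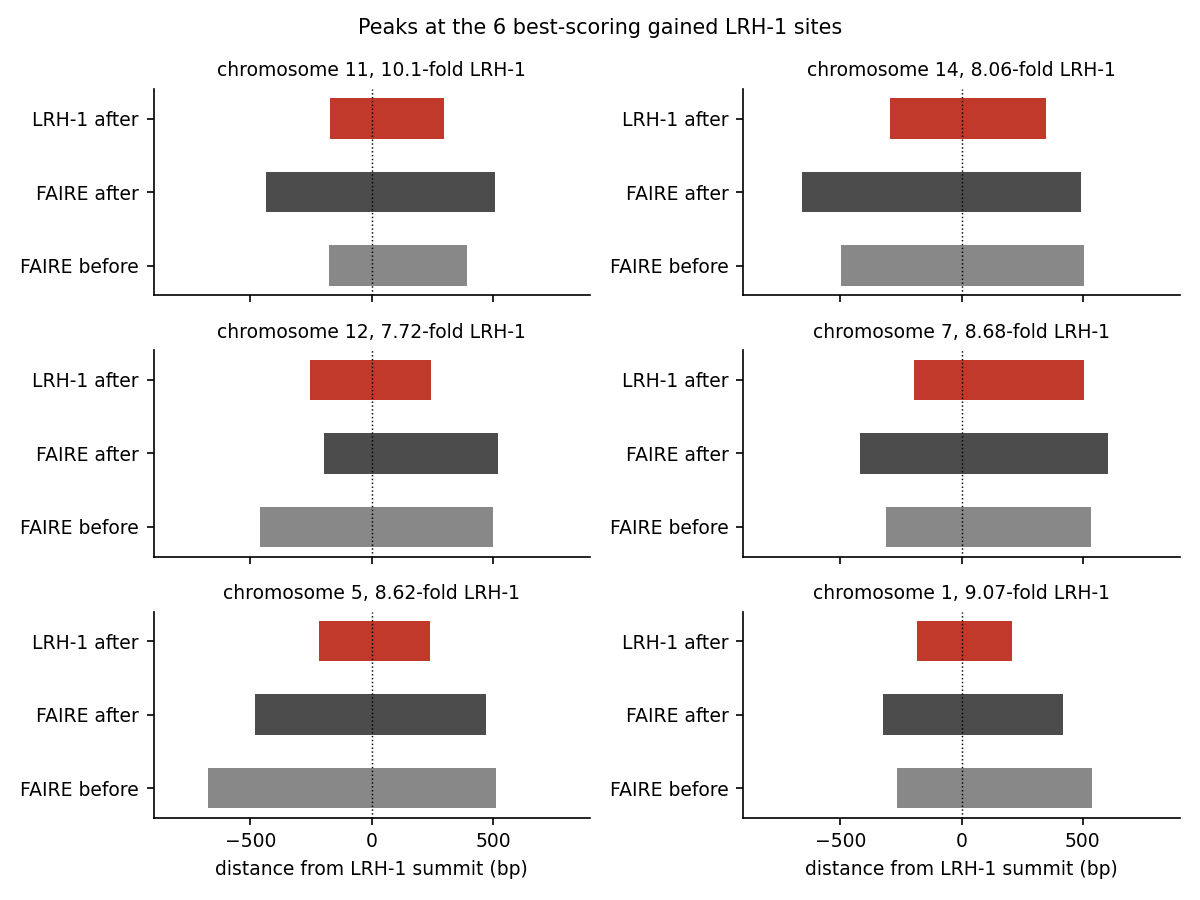
LRH-1 and FAIRE peaks at the 6 best-scoring gained sites, drawn to scale against distance in bp from the LRH-1 summit (dotted line). Bars span each called peak; in all 6 panels the summit lies inside the FAIRE peak of both times.

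The gained sites were weaker LRH-1 peaks than those that had been present before hCG (called persistent). Their median enrichment was 5.08-fold (interval 4.99 to 5.17, quartiles 4.52 and 5.80, range 3.01 to 10.1). Persistent LRH-1 peaks in constantly open chromatin stood at 6.28-fold (6.13 to 6.41, n = 1372). The gained sites had the lower median on 20 of 20 chromosomes. Being absent from the list before hCG is part of the choice, and absence goes with low scores, so this difference is a description.

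Against other gained peaks, the gained sites in constantly open chromatin took a middle place. Gained peaks at FAIRE peaks seen only after hCG had a median of 5.22-fold (5.13 to 5.27, n = 1266), and gained peaks with no FAIRE peak had 4.97-fold (4.97 to 5.02, n = 2844). Both intervals overlap that of the gained sites. Median LRH-1 scores were 7.67 for the gained sites (quartiles 5.85 and 10.3), 7.95 at FAIRE peaks seen only after hCG (6.03 and 10.9) and 6.96 with no FAIRE peak (5.56 and 8.86). The gained sites had a higher median score than gained peaks without FAIRE on 19 of 20 chromosomes, and a higher median enrichment on 16 of 20. Their median width was 305 bp, against 400.5 bp for the persistent peaks in constantly open chromatin and 279 bp for gained peaks without FAIRE.

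Few of the gained sites were among the strongest LRH-1 peaks of the list. Only 21 of 948 (2.22%) were above percentile 90 of the LRH-1 score, and 549 (57.9%) were at or below percentile 50. Over all 5473 gained peaks these shares were 2.14% and 64.8%, so that few top-ranking peaks are a trait of gained peaks in general. At least 6-fold enrichment was seen at 182 sites (19.2%) and at least 8-fold at 16 (1.69%), and no shares of other peaks at these cuts are given here. The upper quartile of enrichment was 5.80-fold for the gained sites, 5.70-fold over all gained peaks and 6.22-fold over the whole list. The gained sites with the lowest scores were chr2:58519747-58519979 at 3.65-fold, chr7:97624109-97624360 at 3.76-fold and chr15:3929682-3929956 at 3.46-fold, with LRH-1 scores of 2.66, 3.02 and 3.14. The lowest score in the whole list was 2.65.

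Within groups of LRH-1 score, gained peaks were less often in constantly open chromatin than persistent ones. Both shares follow from the choice and are a description. LRH-1 peaks after hCG were divided into 10 equal groups by score. In each of the 10 groups the share in constantly open chromatin was higher among persistent than among gained peaks. The intervals were apart in 7 of 10. In the lowest group the shares were 13.4% of gained (11.1 to 15.9, n = 793) and 26.2% of persistent peaks (19.3 to 34.0, n = 149). In the highest they were 17.9% (11.5 to 26.1, n = 117) and 51.3% (47.8 to 54.7, n = 825). Scores in the highest group ran from 18.8 to 248.7, while those of gained peaks reached only 48.45, so that peaks of unequal score are compared there. Over all scores the background was 17.3% of gained and 34.8% of persistent peaks. Gained peaks were 73.1% of the LRH-1 peaks in constantly open chromatin in the lowest group and 4.73% in the highest, against 40.9% over all scores. Among all LRH-1 peaks of these groups, gained peaks fell likewise, from 84.2% to 12.4%.

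**Figure D2:**
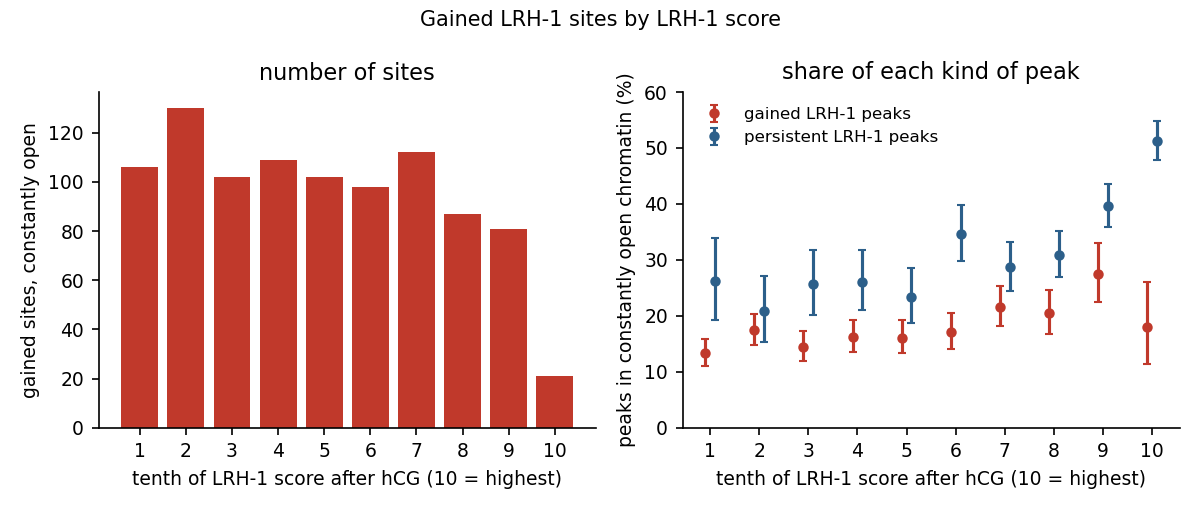
Left, number of gained sites in constantly open chromatin in each of 10 equal groups of all LRH-1 peaks after hCG by score; right, share of gained and of persistent LRH-1 peaks in constantly open chromatin in the same groups, with exact 95% binomial intervals. The sites are spread over the lower 9 groups at 81 to 130 each, with 21 in the highest, and the persistent share is above the gained share in each group.

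The FAIRE peaks under the gained sites ranked differently before and after hCG relative to other constantly open chromatin. In the list before hCG, constantly open FAIRE peaks that held a gained site and no persistent LRH-1 peak had a median percentile of 62.9 (60.4 to 65.7, n = 926). Those with no LRH-1 peak at either time stood at 65.3 (64.5 to 66.1, n = 8891), and those with a persistent peak and no gained site at 77.1 (75.6 to 78.6, n = 1374). Before LRH-1 was called there, these FAIRE peaks thus ranked about with constantly open chromatin without LRH-1 and below that with persistent LRH-1. They were below the latter on 20 of 20 chromosomes, and above constantly open peaks without LRH-1 on 6 of 20.

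In the list after hCG the order was another. FAIRE peaks with a gained site had a median percentile of 70.4 (67.0 to 72.1, n = 926), against 68.7 (66.2 to 70.5, n = 1366) with a persistent peak and 59.5 (58.5 to 60.5, n = 8927) without LRH-1. The gained sites now ranked about with persistent LRH-1 and above constantly open peaks without LRH-1, the latter on 18 of 20 chromosomes. They were below persistent LRH-1 on 8 of 20. Medians are compared here only between classes within a list, since percentiles of lists of unequal length measure no change at a single site.

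**Figure D3:**
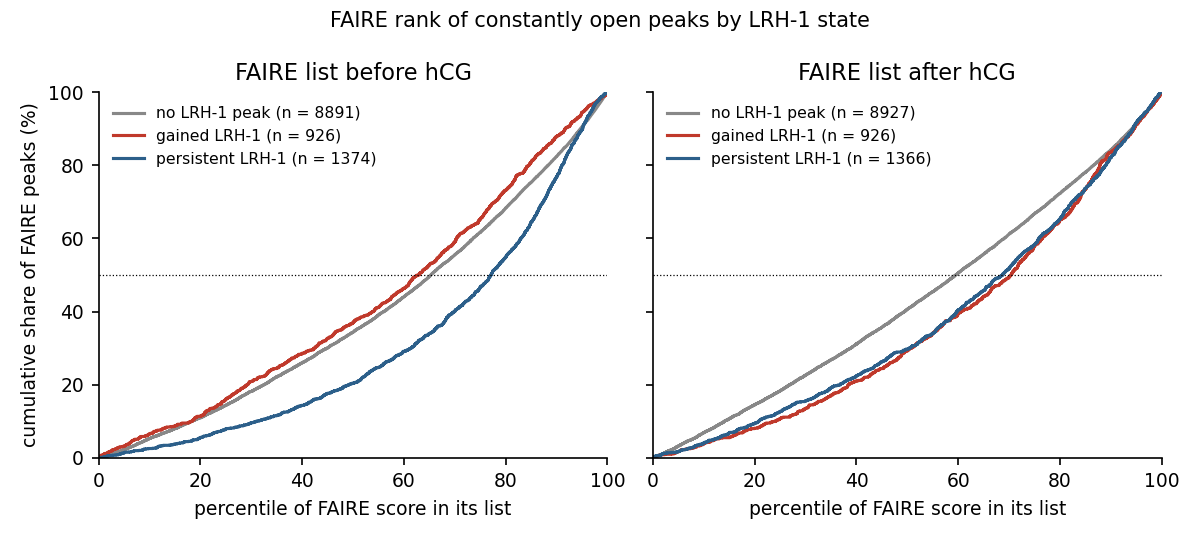
Cumulative share of constantly open FAIRE peaks against the percentile of their FAIRE score, in the list before hCG (left) and after hCG (right), for peaks with a gained LRH-1 site, with a persistent LRH-1 peak and with no LRH-1 peak. Curves further right hold higher-ranked peaks; the gained curve runs near the curve without LRH-1 before hCG (medians 62.9 and 65.3) and near the persistent curve after hCG (70.4 and 68.7).

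The order against persistent peaks was also computed by LRH-1 peak and on each side of the median LRH-1 score, a split that leaves the persistent peaks stronger. The FAIRE peak nearest each gained site had a median percentile of 63.0 before hCG, against 77.1 for persistent peaks in constantly open chromatin, and 70.7 against 68.8 after hCG. Among LRH-1 peaks with a score of at most 8.35, the median of the whole list, the medians before hCG were 63.1 for gained sites (n = 550) and 76.7 for persistent peaks (n = 284). Among the stronger ones they were 62.8 (n = 398) and 77.2 (n = 1088). After hCG they were 66.4 and 63.1 for the weaker and 74.3 and 70.1 for the stronger peaks.

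Counted from the FAIRE side, gained sites thinned out in the highest-scoring open chromatin of the list before hCG. That list had 11521 constantly open peaks, which were divided into 10 equal groups by FAIRE score. A gained site was found at 9.11% of the lowest group (7.51 to 10.9, n = 1153) and at 5.64% of the highest (4.38 to 7.14, n = 1152). A persistent LRH-1 peak was found at 6.16% (4.84 to 7.70) and 13.5% (11.5 to 15.6) of the same groups. The persistent share was also lower in the highest group than in the ninth of the 10, at 18.4% (16.2 to 20.8). By FAIRE score after hCG, gained sites instead rose from 4.59% (3.46 to 5.96, n = 1154) in the lowest group to 11.4% (9.58 to 13.3) in the eighth of the 10, and stood at 9.01% (7.42 to 10.8) in the highest. Of the FAIRE peaks after hCG, 50.6% overlapped a FAIRE peak before it, and these 11535 peaks are the ones divided here.

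**Figure D4:**
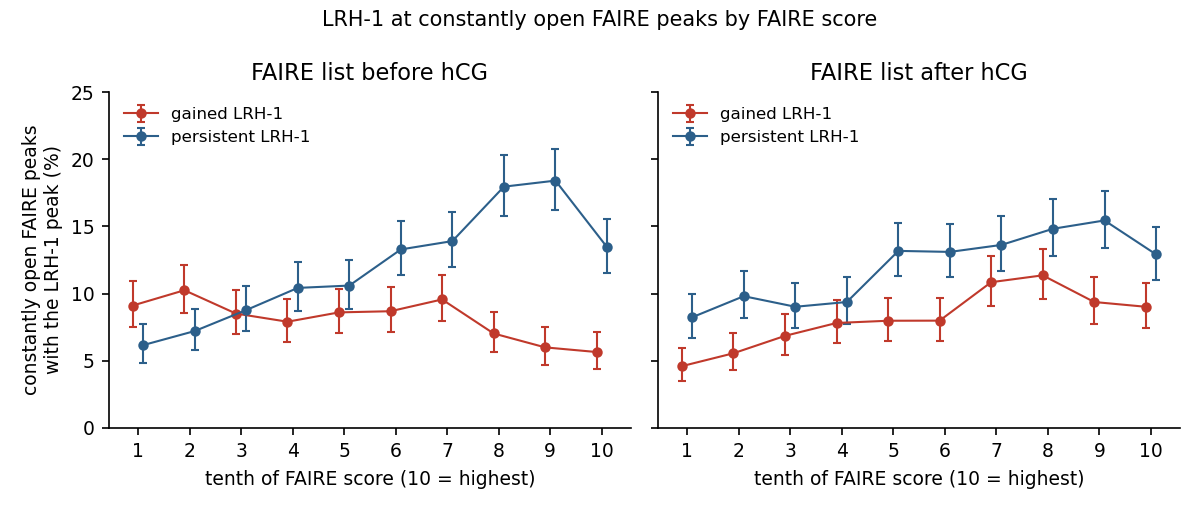
Share of constantly open FAIRE peaks that held a gained site or a persistent LRH-1 peak, in 10 equal groups of FAIRE score before hCG (left) and after hCG (right), with exact 95% binomial intervals. Before hCG the gained share is lowest in the highest-scoring group (5.64%), and after hCG it is lowest in the lowest-scoring group (4.59%).

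FAIRE scores at single gained sites were spread widely. Before hCG, 118 sites (12.4%) lay in FAIRE peaks above percentile 90 and 351 (37.0%) at or below percentile 50. For persistent peaks in constantly open chromatin these shares were 23.4% and 20.5%. After hCG the shares were 17.0% and 28.6% for gained sites and 18.3% and 29.3% for persistent peaks. Both FAIRE peaks were above percentile 90 at 73 of 948 gained sites, and both at or below percentile 50 at 146. For the 1372 persistent peaks in constantly open chromatin these counts were 137 and 122. Across the 948 sites, Spearman's rho of the LRH-1 score with the FAIRE score was -0.03 before and 0.13 after hCG, a description over peaks that share their libraries. Across the persistent peaks in constantly open chromatin it was much the same, at 0.02 and 0.12.

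The gained sites with the highest FAIRE scores before hCG had their summits away from the FAIRE midpoint. At chr17:56218228-56218460 LRH-1 was 4.14-fold enriched, in a FAIRE peak with scores of 1201 before and 898 after hCG. At chr11:95936738-95937064 it was 5.68-fold enriched, with FAIRE scores of 992 and 619. At chr5:138069333-138069613 it was 5.79-fold enriched, with FAIRE scores of 955 and 707. Their summits lay 350, 469.5 and 584.5 bp from the midpoint of the FAIRE peak before hCG. At chr5:138069333-138069613 only 99 bp of the LRH-1 peak overlapped that FAIRE peak, and the LRH-1 summit lay outside the FAIRE peaks of both times. The 3 FAIRE peaks were at percentiles of at least 99.8 in both lists, while the LRH-1 scores stood at percentiles 8.43, 60.7 and 70.9.

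Over all gained sites the summit usually fell near the centre of open chromatin. It lay a median of 110.5 bp (104.5 to 120.5) from the midpoint of the FAIRE peak before hCG and 114.5 bp (102.5 to 126.5) from that after hCG. The FAIRE peaks were a median of 970 and 976 bp wide. Persistent LRH-1 peaks lay closer, at 86.25 bp (79.5 to 93.5) and 90.5 bp (85 to 98). The median distance was larger for gained sites on 17 of 20 chromosomes before hCG and on 14 of 20 after it. Among the weaker LRH-1 peaks, medians before hCG were 128 bp (110.5 to 146.5) for gained sites and 110 bp (92 to 125.5) for persistent peaks. Among the stronger ones they were 100.75 bp (85.5 to 110) and 79.75 bp (74 to 87.5), and both pairs of intervals overlap. Among the weaker LRH-1 peaks, medians after hCG were 126.5 bp (111 to 137.5) for gained sites and 122 bp (99 to 139.5) for persistent peaks. Among the stronger ones they were 99.5 bp (84 to 121) and 86.5 bp (82 to 93.5).

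The distance was larger where the FAIRE score was higher. In FAIRE peaks before hCG at or below percentile 50, gained sites lay a median of 97.5 bp from the midpoint (82 to 108, n = 351), and between percentiles 50 and 90 they lay 110 bp from it (95 to 128, n = 479). Above percentile 90 they lay 235 bp from it (154 to 290, n = 118), where persistent peaks lay 111 bp from it (96.5 to 132.5, n = 321). FAIRE peaks above percentile 90 were wider, with medians of 1090 bp under gained sites and 1168 bp under persistent peaks. After hCG the corresponding distances above percentile 90 were 172.5 bp (114.5 to 203.5, n = 161) and 127 bp (105.5 to 151, n = 251), with intervals that overlap.

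**Figure D5:**
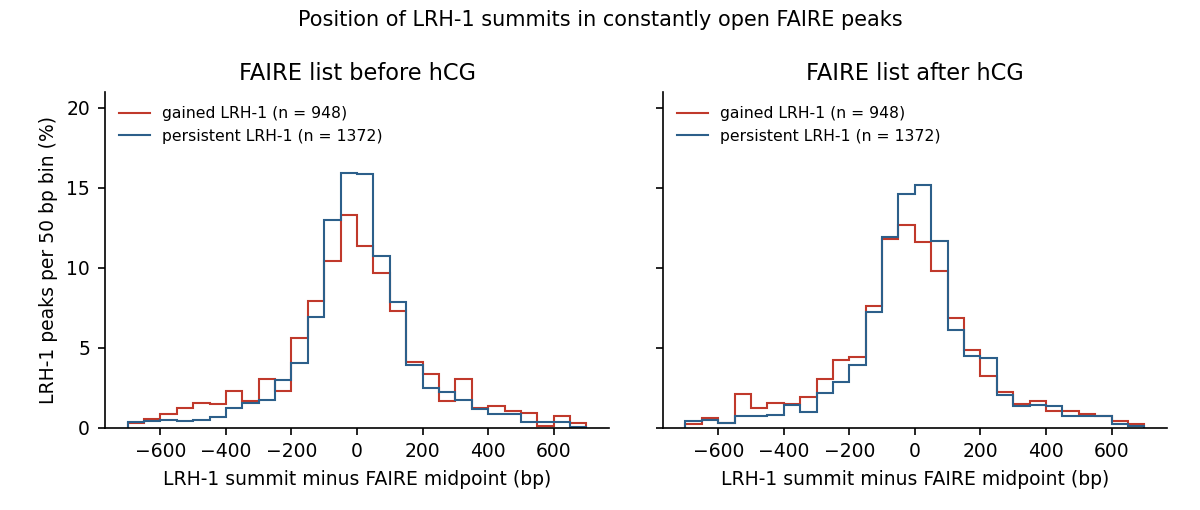
Signed distance in bp from the midpoint of the FAIRE peak to the LRH-1 summit, in 50 bp bins, for gained and persistent LRH-1 peaks in constantly open chromatin, against the FAIRE list before hCG (left) and after hCG (right). Lines give the share of each class; distances beyond the ends of the axis are not drawn. Gained sites are less concentrated at the centre, with median distances of 110.5 bp before and 114.5 bp after hCG against 86.25 and 90.5 bp.

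Most gained sites lay within FAIRE peaks rather than across their edges. The summit was inside the FAIRE peak of both times at 876 of 948 sites (92.4%, 90.5 to 94.0), inside only that before hCG at 25, inside only that after it at 23, and in neither at 24. For persistent peaks in constantly open chromatin it was inside both at 1306 of 1372 (95.2%, 93.9 to 96.3). The whole LRH-1 peak was inside FAIRE peaks of both times at 758 sites (80.0%). Taken by time, it was inside at 84.8% of gained sites before and 86.3% after hCG. For persistent peaks in constantly open chromatin these shares were 90.1% and 86.7%, so this is no trait of gained sites alone. The overlap was under 50 bp at 8 sites before and 5 sites after hCG. The FAIRE peaks before and after hCG overlapped each other at all 948 sites, with midpoints a median of 68.5 bp apart (63 to 74.5). This was also so at all 1372 persistent peaks, with midpoints 63 bp apart (59.5 to 68.5). By the choice both FAIRE peaks overlap the same LRH-1 peak, which favours such overlap. Just outside the choice, 39 of 1266 gained peaks at FAIRE peaks seen only after hCG lay within 500 bp of a FAIRE peak before it. Of 415 gained peaks at FAIRE peaks seen only before hCG, 38 lay within 500 bp of one after it.

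As over all gained peaks, few of the gained sites were near a LRH-1 peak called before hCG. The nearest LRH-1 peak before hCG was a median of 66906 bp away (59412 to 77962), against 64168 bp (60856 to 67690) over all gained peaks. It was within 1 kb at 27 sites (2.85%, 1.89 to 4.12) and more than 1 Mb away at 33. Over all gained peaks it was within 1 kb at 124 (2.27%, 1.89 to 2.70) and more than 1 Mb away at 110. Of the 27 nearest peaks within 1 kb, 8 were lost after hCG and 19 persisted. The FAIRE peaks of 927 gained sites (97.8%, 96.6 to 98.6) held no LRH-1 peak before hCG. The choice leaves out sites that overlap such a peak, which favours a high share, and no share for other gained peaks is given here. At the FAIRE peaks of 7 sites a LRH-1 peak was lost while the site was gained, and at those of 14 sites a LRH-1 peak persisted beside it.

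At the limit of the choice, 1 bp of overlap decides. The smallest gaps to a LRH-1 peak before hCG were 15 bp at chr9:85626819-85627105, 29 bp at chr12:56163793-56164086 and 37 bp at chr17:68337839-68338078. Their summits lay 354, 355 and 499 bp from those of the earlier peaks, of which the first 2 were lost and the third, 9.69-fold enriched, persisted. Just outside were LRH-1 peaks in constantly open chromatin that overlapped an earlier peak by 16 bp at chr16:59108300-59108698, 23 bp at chr1:35826895-35827133 and 30 bp at chr5:122822248-122822519. Their summits lay 337, 211 and 268 bp from the earlier ones. Summit distances just inside the limit were thus 354 to 499 bp and just outside it 211 to 337 bp.

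The gained sites were spread over the genome. They were found on all 20 chromosomes of the lists, from 8 sites on chromosome X to 82 on chromosome 11. Their share of gained LRH-1 peaks ran from 13.8% (9.83 to 18.7) on chromosome 8 to 22.3% (17.6 to 27.6) on chromosome 10, and the 2 intervals overlap. Per constantly open FAIRE peak after hCG, the share with a gained site ran from 4.35% (1.90 to 8.39, n = 184) on chromosome X to 10.9% (8.38 to 13.9, n = 532) on chromosome 17. Another gained site in constantly open chromatin lay within 10 kb, from summit to summit, of 33 sites (3.48%, 2.41 to 4.85), and any other gained LRH-1 peak that near 103 sites (10.9%, 8.96 to 13.0). A persistent LRH-1 peak lay within 10 kb of 75 (7.91%, 6.27 to 9.82), where 11.4% (9.74 to 13.2) of persistent peaks in constantly open chromatin had another persistent peak that near. A gained LRH-1 peak lay that near 10.6% (9.06 to 12.4) of these persistent peaks, about the same share as for gained sites.

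Windows of 1 Mb with gained sites held 1 site in 463 cases, 2 in 130, 3 in 49, 4 in 12 and 5 in 6. In all, 485 of the 948 sites (51.2%) shared their window with another. No such share for other LRH-1 or FAIRE peaks is given here, so the count does not show clustering. Those with 5 included chr3:121000001-122000000, chr4:120000001-121000000 and chr5:32000001-33000000. The window on chromosome 3 had 16 gained LRH-1 peaks of any kind, 3 persistent and 2 lost ones, and 13 constantly open of 32 FAIRE peaks after hCG. That on chromosome 4 had 9 gained, 2 persistent and 4 lost LRH-1 peaks and 10 constantly open of 16 FAIRE peaks, and enrichment at its 5 sites ran from 3.93-fold to 7.40-fold. That on chromosome 5 had 10 gained, 5 persistent and 0 lost LRH-1 peaks and 15 constantly open of 28 FAIRE peaks. No window held more than 5 of the 948 sites.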

How the data were processed

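The submitters' processing notes name BWA and mm9 for FAIRE and ChIP, and MACS2 2.1.0 and bedtools for ChIP. FAIRE peaks carry MACS names in the deposited files. Caller settings, controls, thresholds and whether replicates were pooled are not given in the sources used here. Each FAIRE peak has a score from the authors, and none is under 40. For each LRH-1 peak the authors deposited the summit, a score, a fold enrichment (a ratio), and p- and q-values as −log10.

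Overlaps of at least 1 bp were computed with pandas 2.3.3 and numpy 2.4.6 under Python 3.11.15, and intervals with scipy 1.17.1. The overlap functions were tested on simulated intervals. Each LRH-1 peak was paired with the overlapping FAIRE peak whose midpoint is nearest its summit. Printed starts count from 1. Sites named are the 12 best-scoring, the 3 worst-scoring, the 3 with the highest FAIRE score before hCG, the 3 nearest the limit on each side, and the first 3 by position of the 1 Mb windows with most sites. The sites, lists and comparisons were chosen with earlier results of these data known. The comparisons of FAIRE peaks by LRH-1 state, of distance by FAIRE rank, by LRH-1 score above or below the median, and by chromosome were added after values were seen. RNA, genes near the sites and motifs were not analysed here, since no mm9 annotation or sequence was used. Alternatives were other overlap rules, stricter thresholds and equal list lengths.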

Additional observations from a re-analysis of the deposited data

How the results depend on the processing

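The number of gained sites was 837 to 927 under the other overlap rules, a gap of 500 bp in place of overlap, and a LRH-1 score of at least 5. It was 522 with the best-scoring 5886 LRH-1 peaks after hCG, as many as before it, and 580 with FAIRE scores of at least 60. The share of gained peaks in constantly open chromatin was 16.0% with the summit inside FAIRE peaks, 16.3% with at least 50% of the LRH-1 peak covered, 19.1% with equal list lengths and 10.6% with the FAIRE minimum. The persistent share was 33.1% with the summit inside, 37.4% with equal list lengths and 24.5% with the FAIRE minimum, above the gained share in all 6 alternatives. Median enrichment was 5.25-fold with the LRH-1 minimum and 5.71-fold with equal list lengths. The median distance to the FAIRE midpoint after hCG was 101.5 bp with the summit inside. The share within 1 kb of a LRH-1 peak before hCG was 0.647% with the gap of 500 bp, which removes the nearest sites. The difference in median FAIRE percentile before hCG between gained sites and persistent peaks was -14.1 (-18.2 to -9.82, the extremes that the intervals of the 2 medians allow), and -7.77 (-11.4 to -4.43) with the FAIRE minimum. After hCG it was 1.85 (-2.54 to 6.00), and between 0.540 and 3.98 under the 6 alternatives. These 2 differences were added after seeing the data. Depth limits which weak LRH-1 peaks before hCG were called: a site absent from that list may have been under its threshold, and 1 list per time gives no measure of this.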

Other observations

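Lost LRH-1 sites in constantly open chromatin, which had a LRH-1 peak before hCG and none after it, ranked the other way round. Their FAIRE peaks had a median percentile of 74.9 in the list before hCG (71.2 to 78.2, n = 284 LRH-1 peaks) and of 51.9 in the list after it (45.3 to 58.5). Constantly open FAIRE peaks without LRH-1 stood at 65.3 and 59.5, which are medians over FAIRE peaks and not over LRH-1 peaks. In both lists the gained, persistent or lost classes with LRH-1 called at that time had higher median FAIRE percentiles than the classes without it. These are medians of classes within single lists and were not tested over samples.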
